A study of Mus musculus with 9 samples.

Results

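A set of 9 genes for neuronal calcium-binding proteins was followed through purified retinal ganglion cells (RGCs): *Calb1*, *Calb2*, *Pvalb*, *Calm2*, *Calm3*, *Hpca*, *Vsnl1*, *Ncald* and *Necab2*. They were chosen by symbol, with earlier results of these data known. Each of the 9 was found at 1 locus among the 23997 gene symbols of the expression tables. The study injected 1 eye of C57BL/6J mice in the anterior chamber with saline (Control) or with microbeads that raise intraocular pressure (IOP), and followed IOP for 2 weeks. Microbead eyes were then divided by the size of their IOP rise into Mild IOP and Moderate IOP, so the groups differ in pressure reached as well as in the agent injected. Mice of both sexes were injected at 6 weeks of age, and the labels give the samples as 8 weeks old. In all 3 groups the RGCs were taken from the retina by immunopanning, in which plates coated with antibodies or lectin first removed other cells and then held cells with the surface protein Thy1, with actinomycin D in the solutions to block new transcription. RNA from the eyes of a group was pooled, from fewer retinas in Moderate IOP than in Control or Mild IOP. Each pool was split into 3 before library construction. The 3 libraries of a group were therefore technical replicates of 1 pool, and SDs, standard errors and p-values below cover the spread between libraries and not the spread between animals.

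The proteins encoded by these genes bind calcium through EF-hands, a helix-loop-helix fold that holds the ion in its loop. Calbindin (*Calb1*), calretinin (*Calb2*) and parvalbumin (*Pvalb*) are buffers that limit the height and spread of calcium transients, whereas calmodulin (*Calm2*, *Calm3*) and the neuronal calcium sensors hippocalcin (*Hpca*), visinin-like 1 (*Vsnl1*) and neurocalcin delta (*Ncald*) change shape on binding calcium and then act on target proteins. *Necab2* encodes a neuronal EF-hand protein known to bind G protein-coupled receptors. In the retina these genes are used to tell neuronal classes apart, and calretinin and calbindin are known from amacrine and horizontal cells as well as from RGCs.

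Calmodulin is encoded in the mouse by several genes with the same protein product. The coding sequences of *Calm2* (chr17:87433401-87446935, minus strand, mm10) and *Calm3* (chr7:16915379-16924032, minus strand) are therefore shown first, to mark where they differ. The first 120 bases of each coding sequence, from the GENCODE M21 transcripts and starting at the ATG, are printed with the 18 differing bases in capitals.
Calm2: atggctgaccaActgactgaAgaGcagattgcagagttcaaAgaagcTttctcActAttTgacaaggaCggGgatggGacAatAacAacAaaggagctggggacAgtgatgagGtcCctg
Calm3: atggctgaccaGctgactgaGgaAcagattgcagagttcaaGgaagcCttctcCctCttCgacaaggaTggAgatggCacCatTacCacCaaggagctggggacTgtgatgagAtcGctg
Over the whole coding sequence of 447 bases the genes differed at 78 bases, 74 of them at the third codon base, and none of the 149 codons encoded a different residue. The longest run of bases shared by the transcripts of *Calm2* and *Calm3* was 17. Windows of 100 bases that also occur in the transcript of another gene numbered 11 of 1106 for *Calm2*, 3 of 2191 for *Calm3* and 81 of 3634 for *Ncald*, and 0 for the other 6 genes. The partners were gene models (*Gm7308*, *Gm5881* and *Gm49397*), and how the authors' quantification divided reads between them is not given in the sources used here. *Ncald* (chr15:37366175-37792428, minus strand) spans 426254 bases and overlaps 6 gene models on its own strand and 5 on the other. *Hpca* (chr4:129111570-129121925, minus strand) overlaps *Tmem54* on the other strand, and the library kit does not mark strand, so reads in these overlaps cannot be assigned by strand.

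Levels are given as FPKM, a fragment count divided by transcript length and by library size, scaled between libraries by the median of ratios, so that they can be compared between genes and between libraries. Between 14182 and 14914 genes were above 0 in a library. Read counts were not given, but the upper confidence limits of the FPKM values gave estimated depths of 4830000 to 8780000 fragments. The study's methods state a higher number of reads per sample, so these estimates are not the number of reads sequenced. The most abundant gene took from 1.87% to 3.59% of all FPKM in 7 libraries, 20.5% in the library Mild IOP 2 and 9.14% in the library Moderate IOP 3, so values that rest on these libraries were also computed without them. Of 12 RGC markers, all 12 passed the filter on low values. Of 6 endothelium and pericyte markers, 4 did not, among them *Cldn5* and *Cdh5* at 0 in all 9 libraries, while *Kdr* and *Rgs5* passed. Transcripts of other retinal cells were present. Summed markers of amacrine cells, Muller glia and rods had Control medians of 1458, 885 and 645 FPKM, beside 1610 FPKM for RGCs. Most of the Muller glia sum came from *Dkk3*, *Clu* and *Apoe*, with Control means of 485, 273 and 78.3 FPKM. *Glul* had a Control mean of 29.98 FPKM and *Rlbp1* of 4.46 FPKM. Those of *Slc1a3*, *Aqp4*, *Sox9* and *Kcnj10* were 2.06, 1.67, 0.467 and 0.127 FPKM. As these are bulk samples, fewer cells of a type and less RNA per cell cannot be told apart.

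In Control RGCs, *Calm2* was the most abundant of the 9 genes, at 2260.4 ± 357 FPKM (SD, n = 3), followed by *Calb2* at 1109 ± 46.5 FPKM. These levels were higher than those of 99.9% and 99.7% of the 13043 genes tested. *Hpca* (328 ± 41.0 FPKM) and *Calm3* (158 ± 14.6 FPKM) came next, then *Vsnl1* (68.0 ± 10.5 FPKM), *Ncald* (38.8 ± 3.35 FPKM) and *Necab2* (28.01 ± 5.42 FPKM). In this order from *Calm2* to *Necab2*, each gene stood above the next without overlap of its Control libraries, by ratios of means between 1.39 for *Ncald* over *Necab2* and 3.38 for *Calb2* over *Hpca*. *Pvalb* (24.7 ± 6.46 FPKM) overlapped with *Necab2* above it and with *Calb1* below it. *Calb1* had the lowest level, at 18.9 ± 3.396 FPKM, which was still higher than that of 67.6% of the genes tested. The range from *Calm2* to *Calb1* was 119-fold.

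The order of mean levels was the same in the 3 groups except for the place of *Pvalb*. The distance between *Hpca* and *Calm3* differed between groups. In Control, *Hpca* was 2.07-fold above *Calm3*, and in Mild IOP 1.48-fold, without overlap in either group. In Moderate IOP the ratio was 1.01 and their libraries overlapped. *Pvalb* was the lowest of the 9 genes in Mild IOP, at 20.2 ± 11.5 FPKM, and in Moderate IOP it stood above *Necab2* by 1.40-fold without overlap.

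**Figure D1:**
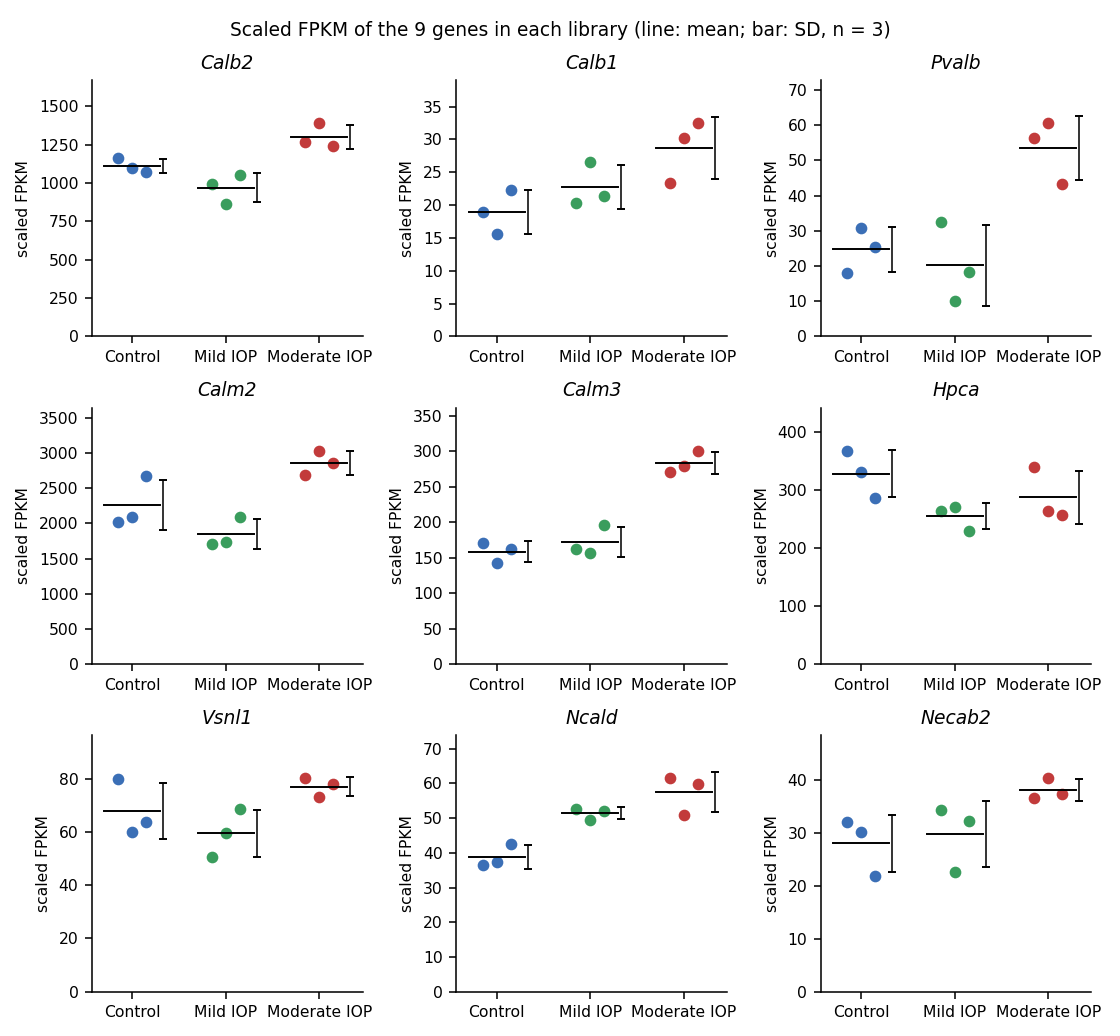
Scaled FPKM (y axis, linear, from 0) of each of the 9 genes in the 3 libraries of Control, Mild IOP and Moderate IOP, with horizontal lines for means and bars for the SD (n = 3). All 3 Moderate IOP points lie above all Control points in 7 panels, and the groups overlap for *Hpca* and *Vsnl1*.

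The gene of calretinin, the most abundant of the buffer genes, was higher in Moderate IOP than in Mild IOP. *Calb2* (chr8:110142538-110168206, minus strand) read 1160.5, 1098 and 1069.7 FPKM in Control, 991, 864 and 1049.9 FPKM in Mild IOP and 1269, 1391 and 1243 FPKM in Moderate IOP. The 3 groups did not overlap, with Mild IOP lowest and Moderate IOP highest. By limma, *Calb2* rose by 0.43 ± 0.11 (log2 fold-change ± SE, on the log2(FPKM + 1) scale) from Mild IOP to Moderate IOP (FDR = 0.044). Its log2 differences from Control were -0.20 ± 0.11 in Mild IOP (FDR = 0.60) and 0.23 ± 0.11 in Moderate IOP (FDR = 0.35). The call of *Calb2* against Mild IOP was lost without Mild IOP 1 (FDR = 0.117), without Moderate IOP 2 (FDR = 0.144), without both Mild IOP 2 and Moderate IOP 3 (FDR = 0.130), with upper-quartile scaling (FDR = 0.112) and without the variance trend (FDR = 0.149).

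The gene of parvalbumin, a buffer known from rapidly firing neurons, showed the largest fold difference among the 9 genes. It also showed the widest spread relative to its mean. *Pvalb* (chr15:78191118-78206351, minus strand) read 17.9, 30.7 and 25.5 FPKM in Control, 32.6, 9.95 and 18.2 FPKM in Mild IOP and 56.5, 60.6 and 43.2 FPKM in Moderate IOP. Every Moderate IOP library stood above all 6 others, and Control and Mild IOP overlapped. *Pvalb* rose by 1.49 ± 0.34 on the log2 scale from Mild IOP to Moderate IOP (limma, FDR = 0.031), which is 2.81-fold, and this call was lost without Moderate IOP 2 (FDR = 0.108). Against Control, the log2 fold-change in Moderate IOP was 1.10 ± 0.34 (95% interval 0.34 to 1.86, FDR = 0.17), which passed the threshold without Mild IOP 2 (FDR = 0.089) and with the spread of the compared groups alone (FDR = 0.090). In Mild IOP the log2 difference of *Pvalb* from Control was -0.39 ± 0.34 (FDR = 0.78), and without Mild IOP 2 it was 0.015. That library held an estimated 47.5 *Pvalb* fragments, the lowest number for any of the 9 genes.

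The gene of calbindin had the lowest mean of the buffer genes in Control and in Moderate IOP. In Mild IOP the mean of *Pvalb* was lower. *Calb1* (chr4:15881264-15906709, plus strand) read 18.9, 15.5 and 22.3 FPKM in Control, 20.2, 26.5 and 21.4 FPKM in Mild IOP and 23.4, 30.3 and 32.5 FPKM in Moderate IOP. The Moderate IOP libraries stood above all Control libraries, and Mild IOP overlapped with both. *Calb1* did not pass the FDR in any comparison, with log2 differences of 0.26 ± 0.19 in Mild IOP (FDR = 0.72) and 0.58 ± 0.19 in Moderate IOP (95% interval 0.17 to 0.99, FDR = 0.18) against Control, and 0.32 ± 0.19 between Moderate IOP and Mild IOP (FDR = 0.35).

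*Calm3* was upregulated in Moderate IOP against both Control and Mild IOP, the only gene of the 9 called in both comparisons. It read 171, 142 and 163 FPKM in the Control libraries, 161, 157 and 196 in those of Mild IOP and 271, 279 and 301 in those of Moderate IOP. The Moderate IOP libraries lay above all others with a wide gap, and Control and Mild IOP overlapped. *Calm3* rose by 0.84 ± 0.12 on the log2 scale from Control (limma, FDR = 0.013) and by 0.73 ± 0.12 from Mild IOP (FDR = 0.010), which are 1.79-fold and 1.66-fold. Both calls held under each of the 20 alternatives run, with an FDR between 0.010 and 0.069 against Control and between 0.0066 and 0.079 against Mild IOP. In Mild IOP the difference of *Calm3* from Control was 0.11 ± 0.12 on the log2 scale (95% interval -0.16 to 0.38, FDR = 0.84).

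*Calm2*, the more abundant calmodulin gene, read 2023, 2087 and 2671 FPKM in Control, 1713, 1739.8 and 2094 FPKM in Mild IOP and 2683, 3037 and 2858 FPKM in Moderate IOP. The Moderate IOP libraries stood above the other 6, by a narrow margin over Control 3, and Control and Mild IOP overlapped. *Calm2* rose by 0.63 ± 0.13 on the log2 scale from Mild IOP to Moderate IOP (limma, FDR = 0.023), a call lost only without both Mild IOP 2 and Moderate IOP 3 (FDR = 0.125). Against Control, its log2 differences were -0.28 ± 0.13 in Mild IOP (FDR = 0.52) and 0.35 ± 0.13 in Moderate IOP (FDR = 0.26).

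Promoter windows of 300 bases, from 250 before to 50 after a start site, were available from RefSeq (GRCm38.p6) for 5 of the 9 genes, *Pvalb*, *Calm3*, *Hpca*, *Vsnl1* and *Necab2*. Those of *Calm3*, called in both Moderate IOP comparisons, and *Pvalb*, with the largest fold-change, are shown with CpG dinucleotides in capitals, as both genes were higher in Moderate IOP than in Mild IOP. The 5 genes had 9 windows, of which *Pvalb* had 2, and the upstream *Pvalb* window is the one printed. The *Calm3* window is chr7:16923983-16924282 and the printed *Pvalb* window is chr15:78206351-78206650, both on the minus strand.
Calm3: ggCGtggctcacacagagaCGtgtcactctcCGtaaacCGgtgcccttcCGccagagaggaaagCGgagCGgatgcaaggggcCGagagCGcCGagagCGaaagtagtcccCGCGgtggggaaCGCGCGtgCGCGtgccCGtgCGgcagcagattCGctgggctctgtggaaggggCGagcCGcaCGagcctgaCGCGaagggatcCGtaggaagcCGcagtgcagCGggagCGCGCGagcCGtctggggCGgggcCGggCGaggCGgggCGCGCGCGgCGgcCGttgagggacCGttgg
Pvalb: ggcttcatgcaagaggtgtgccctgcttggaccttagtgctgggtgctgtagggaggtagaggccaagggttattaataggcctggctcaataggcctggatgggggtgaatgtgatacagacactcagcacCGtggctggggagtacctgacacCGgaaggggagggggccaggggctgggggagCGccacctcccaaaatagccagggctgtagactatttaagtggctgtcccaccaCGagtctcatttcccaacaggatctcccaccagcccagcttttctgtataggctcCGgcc
The *Calm3* window had 72% G and C and 44 CpG, an observed over expected ratio of 1.19 that 0.569% of the 32851 windows of this length reached or passed. The printed *Pvalb* window had 58.3% G and C and 5 CpG, a ratio of 0.199 that 71.4% of windows reached or passed. The other *Pvalb* window (chr15:78204188-78204487, minus strand) had 67.7% G and C and 25 CpG, a ratio of 0.732 that 26.5% of windows reached or passed, so the base composition of the *Pvalb* promoter depends on the start site taken. GGGCGG, the GC box, occurred once on either strand of the *Calm3* window and in 35.7% of all windows, and TGACG, part of the cyclic AMP response element, also occurred once there and in 20.8% of all windows. Neither these letters nor TATAAA, found in 13.6% of windows, occurred in either *Pvalb* window.

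Among the neuronal calcium sensors, *Ncald* was upregulated in Moderate IOP. *Ncald*, whose product binds membranes when calcium rises, read 36.5, 37.3 and 42.6 FPKM in Control, 52.7, 49.6 and 52.1 FPKM in Mild IOP and 61.5, 50.8 and 59.95 FPKM in Moderate IOP. All 6 libraries of the IOP groups stood above all 3 Control libraries, whereas Mild IOP and Moderate IOP overlapped. *Ncald* rose by 0.55 ± 0.13 on the log2 scale from Control to Moderate IOP (limma, FDR = 0.083), under the 1.5-fold change that the study also asked of a differentially expressed gene (DEG). Its difference in Mild IOP was 0.40 ± 0.13 (FDR = 0.28), and that between Moderate IOP and Mild IOP was 0.15 ± 0.13 (FDR = 0.54). The call in Moderate IOP held in 9 of 20 alternatives. For *Ncald* the FDR was 0.233 without Control 1, 0.207 without Control 2, 0.146 without Mild IOP 1, 0.115 without Mild IOP 3, 0.164 without Moderate IOP 1, 0.105 without Moderate IOP 2 and 0.165 without Moderate IOP 3, and the direction was the same in each.

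*Hpca*, which encodes a sensor of the slow afterhyperpolarization in hippocampal neurons, had a lower mean in both IOP groups than in Control, without a call in either. It read 368, 331 and 286 FPKM in Control, 263, 270.5 and 229 FPKM in Mild IOP and 339, 264 and 257 FPKM in Moderate IOP. The Mild IOP libraries lay below all Control libraries, and Moderate IOP overlapped with both groups. The log2 differences of *Hpca* from Control were -0.36 ± 0.14 in Mild IOP (FDR = 0.39) and -0.20 ± 0.14 in Moderate IOP (FDR = 0.54), and Moderate IOP differed from Mild IOP by 0.17 ± 0.14 (FDR = 0.54).

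*Vsnl1* (chr12:11325245-11436649, minus strand) read 79.9, 60.2 and 63.8 FPKM in Control, 50.9, 59.6 and 68.6 FPKM in Mild IOP and 80.4, 73.1 and 78.2 FPKM in Moderate IOP. Control overlapped with both IOP groups, while the Moderate IOP libraries lay above all Mild IOP libraries. None of its differences passed the FDR, at -0.18 ± 0.15 in Mild IOP (FDR = 0.75) and 0.19 ± 0.15 in Moderate IOP (FDR = 0.58) against Control, and 0.38 ± 0.15 between Moderate IOP and Mild IOP (FDR = 0.17).

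*Necab2* (chr8:119446719-119472635, plus strand) read 32.0, 30.1 and 21.9 FPKM in Control, 34.3, 22.6 and 32.3 FPKM in Mild IOP and 36.5, 40.3 and 37.4 FPKM in Moderate IOP. The Moderate IOP libraries lay above all 6 others, with the smallest SD of the 3 groups (38.1 ± 1.99 FPKM), and Control and Mild IOP overlapped. *Necab2* did not pass the FDR in any comparison, with log2 differences of 0.08 ± 0.19 in Mild IOP (FDR = 0.93) and 0.45 ± 0.19 in Moderate IOP (FDR = 0.30) against Control, and 0.37 ± 0.19 between Moderate IOP and Mild IOP (FDR = 0.30). Its difference in Mild IOP was -0.083 without Control 3 and -0.029 without Mild IOP 1.

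Counted over the 9 genes, 0 were called in Mild IOP against Control, where 0.399% of the 13043 genes tested were called (limma, FDR under 0.1). At an unadjusted p under 0.05 the count was 2 (*Hpca* and *Ncald*), against 10.2% of all genes. The Mild IOP libraries lay all above Control for 1 gene (7.94% of all genes) and all below for 2 (9.13%), and overlapped for 6. The median log2 difference of the 9 genes was -0.18.

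In Moderate IOP against Control, 2 of the 9 genes were called, *Calm3* and *Ncald*, both upregulated, where 0.951% of all genes were called higher and 1.84% in either direction. All Moderate IOP libraries lay above all Control libraries for 7 of the 9 (9.95% of all genes), and below for 0 of the 9 (9.48%). At an unadjusted p under 0.05 the count was 6, against 15.3% of all genes, and 0 were called lower (0.889%). The median log2 difference was 0.45. In Moderate IOP against Mild IOP, 4 of the 9 were called, *Calb2*, *Pvalb*, *Calm2* and *Calm3*, all higher, where 7.03% of all genes were called higher, 3.12% lower and 10.2% in either direction. At an unadjusted p under 0.05 the count was 5, against 21.8% of all genes. All 9 differences were positive, with a median of 0.38 and a range from 0.15 to 1.49, and the Moderate IOP libraries lay above all Mild IOP libraries for 6 of the 9 (14.5% of all genes) and below for 0 (13%). Both comparisons use the same Moderate IOP libraries, and both comparisons against Control use the same Control libraries, so the counts are not independent of each other.

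**Figure D2:**
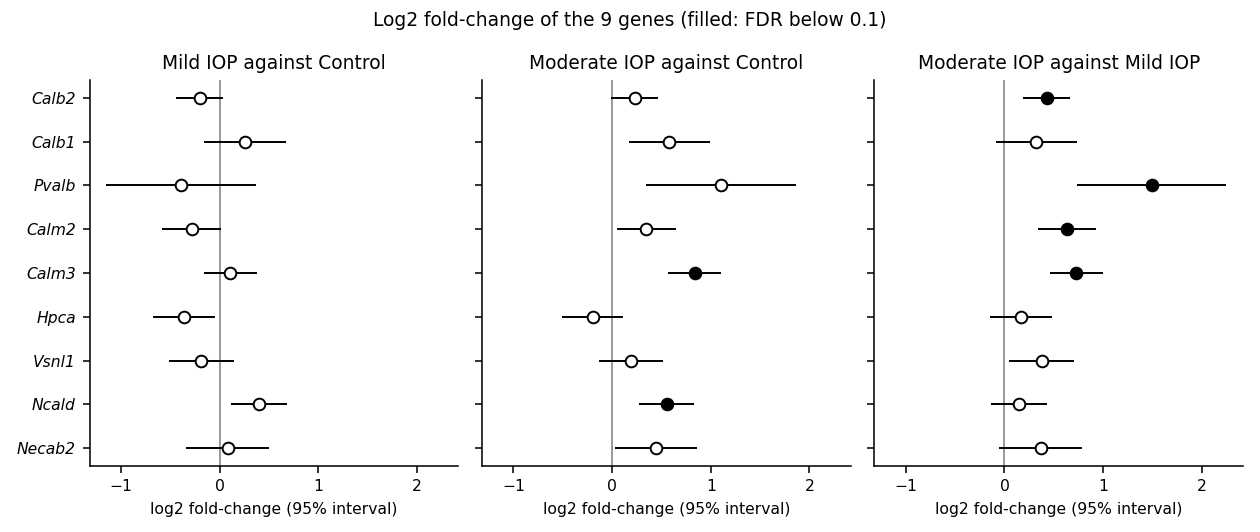
Log2 fold-change (x axis) of each of the 9 genes in the 3 comparisons, with 95% intervals from limma and filled points for an FDR under 0.1. No point is filled for Mild IOP against Control, *Calm3* and *Ncald* are filled for Moderate IOP against Control, and *Calb2*, *Pvalb*, *Calm2* and *Calm3* are filled for Moderate IOP against Mild IOP.

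The 9 genes did not follow a single pattern across libraries. Over the 9 libraries, the Pearson correlation of log2 levels was highest for *Calb2* with *Calm2* (r = 0.84) and lowest for *Hpca* with *Ncald* (r = -0.51). Libraries of a group share a pool, so these coefficients describe 3 pools as much as 9 libraries. The closest genes were taken as those with the highest coefficients among 6042 genes with a mean of at least 10 FPKM. High coefficients were thus selected for. Those closest to *Calm3* were *Nefl*, the neurofilament light chain (r = 0.98), *Tsc22d1* (r = 0.97) and *Raly* (r = 0.97). Those closest to *Calm2* were *Skp1a*, *Cycs* and *Eif2s2* (r = 0.98, 0.98 and 0.97), and those closest to *Calb2* were *Dcxr*, *Myl12b* and *Hcfc1r1* (r = 0.99, 0.98 and 0.97). For *Pvalb* they were *Capzb*, *Chchd4* and *Pcbd1* (r = 0.96, 0.96 and 0.95), and for *Calb1* they were *Snapc3*, *Jun* and *Cd47* (r = 0.96, 0.94 and 0.94). For *Ncald* they were *Atp6v1h*, *Ppp2r2d* and *Tmed2* (r = 0.94, 0.93 and 0.93), and for *Hpca* they included *Ube2z* and *D17Wsu92e* (r = 0.89 and 0.88). *Vsnl1* was closest to *Ttc9b*, *Dut* and *Sf3a2* (r = 0.97, 0.95 and 0.93), and *Necab2* to *Snrpa*, *Fxyd6* and *Coro2b* (r = 0.96, 0.95 and 0.94).

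The other genes of calcium binding and signalling were read from 8 lists of 115 genes, of which 102 were tested. In Mild IOP against Control 0 of the 102 were called, in Moderate IOP against Control 6 rose and 1 fell, and between Mild IOP and Moderate IOP 13 rose and 7 fell. Of all 13043 genes tested, 0.399% were called in the first of these comparisons, 0.951% were called higher and 0.889% lower in the second, and 7.03% higher and 3.12% lower in the third. Their median log2 differences were 0.04, 0.09 and 0.005, whereas those of the 9 genes were -0.18, 0.45 and 0.38. The 9 genes and the lists were chosen with earlier results of these data known. Whether this contrast follows from that choice was not tested.

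Of 9 calmodulin-like genes tested, 2 rose from Mild IOP to Moderate IOP, among them *Cabp1*, a calmodulin relative that binds calcium channels (35.4 ± 4.80 to 57.1 ± 6.88 FPKM, FDR = 0.023), and 0 were called against Control. Of the 10 other neuronal calcium sensor genes, *Hpcal1*, a close relative of *Hpca*, rose from 30.5 ± 4.57 FPKM in Control to 50.99 ± 6.46 FPKM in Moderate IOP (FDR = 0.065), and also from Mild IOP (27.3 ± 2.60 FPKM, FDR = 0.012). *Hpcal4* rose from 29.0 ± 1.13 FPKM in Mild IOP to 38.1 ± 1.59 FPKM in Moderate IOP (FDR = 0.097). The most abundant gene of that list was *Kcnip1*, a potassium channel-interacting protein, at 291 ± 26.1 FPKM in Control, which was not called.

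*Necab1*, the relative of *Necab2*, fell by 0.54 ± 0.13 on the log2 scale from Mild IOP (53.8 ± 4.06 FPKM) to Moderate IOP (36.8 ± 3.72 FPKM, limma, FDR = 0.042), the only call among the 3 genes tested in the list of other buffers. The *Necab2* difference in that comparison was of the opposite sign and was not called. Of 8 S100 genes tested, *S100a16*, *S100a6* and *S100a10* rose in Moderate IOP against both other groups. *S100a10*, the annexin partner, had a mean of 100.3 ± 26.3 FPKM in Control, of 66.7 ± 13.1 in Mild IOP and of 191 ± 48.2 in Moderate IOP, with an FDR of 0.095 against Control and 0.0071 against Mild IOP. *S100a16* stood at 3.51 ± 0.388, 2.88 ± 0.517 and 15.1 ± 2.87 FPKM, with an FDR of 0.0038 and 0.0029. *S100a6* was at most 0.399 FPKM in Control and 2.93 FPKM in Mild IOP and between 4.22 and 20.8 FPKM in Moderate IOP, with an FDR of 0.056 and 0.087. Of the 9 small cytosolic EF-hand genes and the 12 genes of the endoplasmic reticulum and secretory pathway, 0 were called in any comparison, including the calcineurin subunit *Ppp3r1* (103 ± 21.7 FPKM in Control) and calreticulin, *Calr* (183 ± 22.1 FPKM in Control).

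Of 34 calmodulin targets and regulators, 3 were called in Moderate IOP against Control, 2 higher and 1 lower. Against Mild IOP 9 were called, 5 higher and 4 lower. The median log2 differences of this list were 0.011 and -0.076. *Pcp4*, whose product binds calmodulin, rose from 959 ± 233 FPKM in Control and 761 ± 123 FPKM in Mild IOP to 1727 ± 57.2 FPKM in Moderate IOP (FDR = 0.055 and 0.0071). *Camk2n1*, an inhibitor of calmodulin-dependent kinase II, rose from 7.001 ± 2.09 FPKM in Control and 6.27 ± 1.01 FPKM in Mild IOP to 14.5 ± 2.70 FPKM (FDR = 0.095 and 0.025). *Dapk1*, a calmodulin-dependent death-associated kinase, fell from 24.4 ± 0.669 FPKM in Control and 17.6 ± 3.59 FPKM in Mild IOP to 9.96 ± 1.153 FPKM (FDR = 0.013 and 0.036). *Marcksl1* and *Gap43*, whose products bind calmodulin at the membrane, rose from Mild IOP to Moderate IOP by 0.74 ± 0.14 and 0.59 ± 0.13 on the log2 scale (FDR = 0.017 and 0.029).

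Of 17 calcium pump, exchanger and uniporter genes, 0 were called against Control. Between Mild IOP and Moderate IOP, *Smdt1*, a regulator of the mitochondrial uniporter, rose from 261 ± 66.4 to 466 ± 35.6 FPKM (FDR = 0.022), while *Atp2a2*, the pump that fills the endoplasmic reticulum, fell from 70.4 ± 7.99 to 45.4 ± 3.81 FPKM (FDR = 0.025). *Slc24a3*, a sodium, potassium and calcium exchanger, fell from 124 ± 0.870 to 92.0 ± 12.5 FPKM (FDR = 0.071). Of the calls against Control, those of *S100a16* and *Dapk1* held in 20 of 20 alternatives, that of *Pcp4* in 13, *Hpcal1* in 10, *S100a10* in 6 and *Camk2n1* in 5, and that of *S100a6* in 8 of 19. Of the calls against Mild IOP, those of *Cabp1*, *Hpcal1*, *S100a16*, *S100a10*, *Pcp4*, *Marcksl1*, *Gap43* and *Smdt1* held in 20 of 20 alternatives, those of *Atp2a2* and *Camk2n1* in 18, *Dapk1* in 17, *Necab1* in 15, *Slc24a3* in 11 and *Hpcal4* in 6, and that of *S100a6* in 5 of 19.

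**Figure D3:**
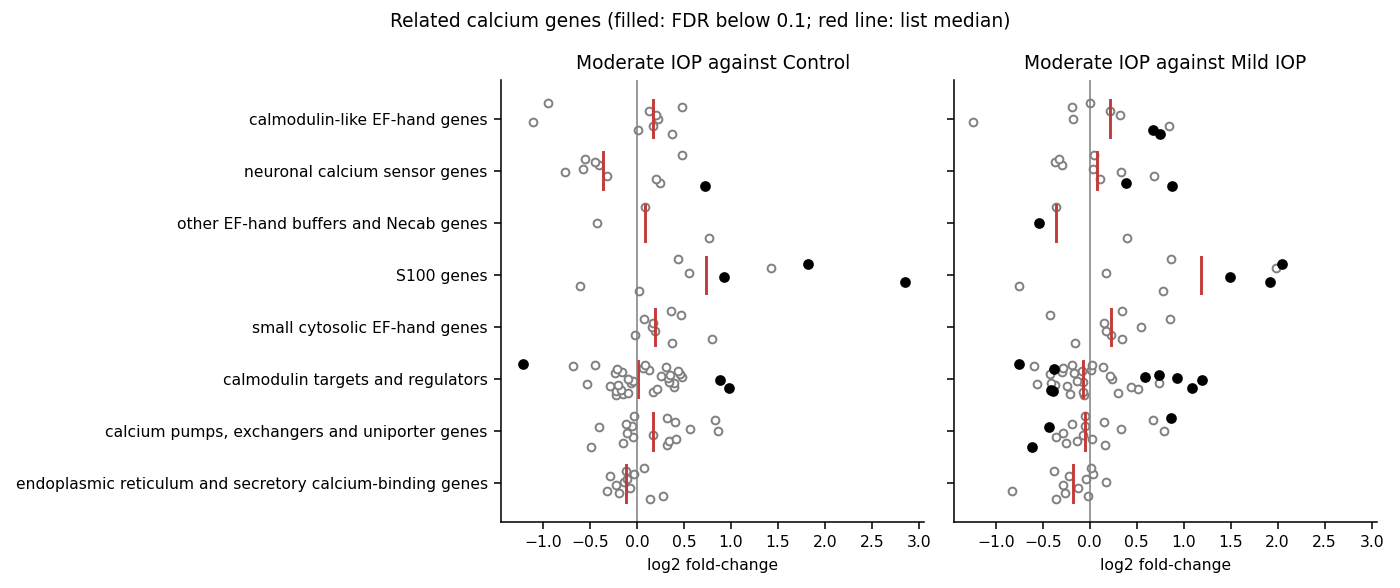
Log2 fold-change (x axis) of the 102 tested genes of 8 lists of calcium genes in Moderate IOP against Control (left) and against Mild IOP (right), with filled points for an FDR under 0.1 and red lines for list medians. Against Control 7 points are filled, of which 3 are S100 genes, and against Mild IOP 20 are filled.

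Markers of RGCs and of other retinal cells also differed between the pools. The summed level of 12 RGC markers was between 1532 and 1619 FPKM in the Control libraries, between 1126 and 1394 in those of Mild IOP and between 2381 and 2527 in those of Moderate IOP. In Moderate IOP, 2 of the 12 rose against Control (*Nefl* and *Sncg*) and 6 against Mild IOP, with 0 called lower and median log2 differences of 0.40 and 0.54. By their means, *Calb2*, *Calm2*, *Pvalb* and *Vsnl1* had the order of this sum, Mild IOP lowest and Moderate IOP highest. *Hpca*, *Ncald*, *Calm3*, *Calb1* and *Necab2* did not. Most of the sum came from *Sncg* (911, 641 and 1389 FPKM in Control, Mild IOP and Moderate IOP) and *Nefl* (343, 374 and 537 FPKM). The log2 differences of *Pou4f2*, *Pou4f3* and *Rbpms2* in Moderate IOP against Control were -0.10, -0.15 and -0.07. Those of the other RGC markers were positive. The summed level of 12 amacrine markers, 10 of them tested, was between 1415 and 1464 FPKM in the Control libraries, between 1473 and 1655 in those of Mild IOP and between 1025 and 1189 in those of Moderate IOP, and in Moderate IOP 2 fell against Control and 4 against Mild IOP. The defining cholinergic marker *Chat* was at or under 1.39 FPKM in every library.

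Markers of 5 horizontal cell genes summed to between 125 and 161 FPKM in the Control libraries, between 116 and 132 in those of Mild IOP and between 138 and 171 in those of Moderate IOP, with *Lhx1* at 0 in all 9 libraries and 0 of 3 tested called. Most of this sum came from *Sept4* (80.8 ± 23.7 FPKM in Control) and *Tfap2b* (57.3 ± 4.81 FPKM), which is also among the amacrine markers. *Onecut1* and *Onecut2* had Control means of 1.06 and 0.139 FPKM. The 11 rod markers summed to between 629.6 and 655 FPKM in the Control libraries, between 397 and 439 in those of Mild IOP and between 439 and 449 in those of Moderate IOP, and 2 and 3 of them fell in the IOP groups. The 9 Muller glia markers summed to between 847 and 894, between 859 and 912 and between 957 and 1007 FPKM in the same order, and 2 and 3 rose in Moderate IOP against Control and Mild IOP. The 10 bipolar markers summed to between 122 and 208, between 113 and 190.5 and between 201 and 259.7 FPKM, with *Vsx1* at 0 and 1 called (*Pcp2*, higher in Moderate IOP than in Mild IOP). The 7 lens markers summed to between 305 and 368 FPKM in Control and to at most 5.71 FPKM in the IOP groups, and 5 fell in each. The 7 cone, 4 astrocyte, 7 microglia and macrophage and 6 endothelium and pericyte markers reached at most 24.4, 6.80, 37.8 and 10.9 FPKM in any library and 0 were called. The part of these markers' cells in the differences of the 9 genes was not tested.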

How the data were processed

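RNA-seq libraries were made from the pooled RGC RNA of each group (3 libraries each) with an oligo-dT primed SMART-seq kit and Nextera XT, which do not mark strand. Reads were aligned to mm10 by the authors. The labels' processing notes name FastQC, Trimmomatic, TopHat2, Cufflinks and Cuffdiff, whereas the study's methods name bowtie2 with cufflinks and cuffdiff. Each deposited table holds 1 library, with an FPKM value for every gene. Here FPKM were summed per symbol, scaled by the median of ratios (factors 0.983 to 1.06) and tested as log2(scaled FPKM + 1), a scale that understates changes of low genes. The 13043 genes with a mean of at least 0.5 FPKM and no failed estimate entered limma 3.58.1 (R 4.3.3), with 1 spread estimated over all 9 libraries, a variance trend and Benjamini-Hochberg adjustment over all genes. A gene was called at FDR under 0.1, the authors' threshold. The procedure was tested on simulated FPKM. The 9 genes, related lists and markers were chosen with earlier results of these data known. The text names the 9 genes, up to 4 called genes of each related list and comparison by smallest p, the most abundant gene of a list, and the 3 genes closest to each of the 9 by correlation. Marker genes were named only beside a result, and some results that the rule names are not reported here. Positions and transcripts are from GENCODE M21 and promoters from RefSeq (GRCm38.p6). Fragments per gene were derived from FPKM and its upper confidence limit, since counts were not used here. Depth was the median estimate over genes with a single annotated transcript of at least 2000 bases and at least 100 derived fragments. Deviations from group means of same-numbered libraries correlated between -0.0051 and 0.044, so replicate numbers were not taken as pairs. Scaling, pseudocount, filter, spread and left-out libraries were varied in 20 alternatives.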

Additional observations from a re-analysis of the deposited data

How the results depend on the processing

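The count of the 9 genes called in Mild IOP against Control was 0 in each of the 20 alternatives. In Moderate IOP against Control the count of 2 became 1 (*Calm3*) without the variance trend, without both Mild IOP 2 and Moderate IOP 3, and with the replicate number as a block, and was between 1 and 3 when each library was left out in turn. Against Mild IOP the count of 4 became 2 without both of those libraries and was between 2 and 4 with each library left out, and it stayed 4 with the block. The direction of *Pvalb* in Mild IOP reversed to 0.015 without Mild IOP 2, alone or with Moderate IOP 3, within a range of -0.80 to 0.015 with a library left out. That of *Necab2* reversed to -0.083 without Control 3 and -0.029 without Mild IOP 1, within a range of -0.083 to 0.26. The cause was not tested.

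Counts over all genes moved more. In Mild IOP the 52 calls became 28 with upper-quartile scaling, 24 without a filter, 85 with a filter of 5 FPKM, 11 with the spread of the compared groups, 25 with the replicate block, 15 without the variance trend and 17 without both libraries, and 14 to 172 with each library left out. In Moderate IOP against Control the 240 calls became 134 with the spread of the compared groups, 135 with the block, 144 without the trend and 137 without both libraries, and 61 to 271 with each left out. Against Mild IOP the 1324 calls became 839 without the trend and 438 without both libraries, and 518 to 1362 with each left out. Estimated depths of 4830000 to 8780000 fragments limited *Pvalb* most, at 47.5 to 376 fragments a library.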
